A study of Mus musculus with 24 samples.

Results

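The genes described here are 10 markers that interleukin-4 and interleukin-13 are known to raise in macrophages through the transcription factor STAT6: Arg1, Retnla, Chil3, Mrc1, Mgl2, Clec10a, Ccl17, Ccl22, Ccl24 and Il4ra. They are a named set taken from knowledge of the pathway, put together with earlier results of these data known, and were found by matching the RefSeq accession of each microarray probe to a gene symbol. Together they took 11 of the 39429 probes and 10 of the 32451 genes or transcripts that the array distinguishes. Il4ra had 2 probes and each other gene had 1, with 1 spot per probe.

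CD11b+ cells, a mixture of neutrophils, monocytes, macrophages and other myeloid cells that carry the integrin chain Itgam, were taken from 2 tissues, spleen and bone marrow, in male mice on the Balb/C background. The mice were 10 weeks old when obtained. They were wild-type (WT), histidine decarboxylase knockout (HDC-KO, which cannot make histamine from histidine) or STAT6 knockout (STAT6-KO), and no promoter or cell type that would restrict either deletion is given in the sources used here. Each genotype was studied in control mice and 1, 2 and 4 weeks after myocardial infarction (MI). Every combination of genotype, tissue and time was 1 array hybridised with RNA pooled from the cells of 5 mice, so no condition had a replicate and the time points stood in for replicates of a genotype. Of 24 arrays, 22 were complete, 11 per tissue; the HDC-KO spleen control and the STAT6-KO bone marrow MI 1 week arrays were not used.

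Interleukin-4 and interleukin-13 bind receptors that share the chain encoded by Il4ra. Janus kinases on these receptors phosphorylate STAT6, which forms dimers, enters the nucleus and binds palindromic sites near the genes of the alternative, or type 2, activation programme. That programme gives macrophages C-type lectin receptors for sugars (Mrc1, Mgl2, Clec10a), chemokines that draw eosinophils and T cells (Ccl24, Ccl17, Ccl22), secreted proteins (Retnla, Chil3) and the arginine-degrading enzyme Arg1.

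RefSeq promoter windows on GRCm38.p6, from 250 bases before the transcript start to 50 bases after it, were at hand for 7 of the 10 genes. Ccl24, Arg1 and Clec10a had no window and were not searched. The motif bound by STAT6, TTCNNNNGAA, and the shorter motif of other STAT proteins, TTCNNNGAA, were searched. Both read the same on either strand and their matches below share no bases. TTCNNNNGAA was found in 2 of the 7 windows, against 6.95% of all 32851 promoter windows, and TTCNNNGAA in 2 of the 7, against 8.30%. The windows of Mrc1, Mgl2, Ccl22 and Il4ra held neither, which says only that these letters are absent from this stretch. The windows of 3 genes are shown with matches in capitals: Retnla and Ccl17, which carry the STAT6 motif, and Mgl2, whose level differed between genotypes and which carries none.
Retnla, chr16:48842419-48842538, plus strand: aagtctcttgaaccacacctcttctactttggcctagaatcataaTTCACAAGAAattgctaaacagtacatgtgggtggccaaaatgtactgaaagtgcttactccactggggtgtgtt
Ccl17, chr8:94810263-94810382, plus strand: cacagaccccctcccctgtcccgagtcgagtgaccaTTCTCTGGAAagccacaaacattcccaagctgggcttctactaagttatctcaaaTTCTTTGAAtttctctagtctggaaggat
Mgl2, chr11:70130107-70130406, plus strand: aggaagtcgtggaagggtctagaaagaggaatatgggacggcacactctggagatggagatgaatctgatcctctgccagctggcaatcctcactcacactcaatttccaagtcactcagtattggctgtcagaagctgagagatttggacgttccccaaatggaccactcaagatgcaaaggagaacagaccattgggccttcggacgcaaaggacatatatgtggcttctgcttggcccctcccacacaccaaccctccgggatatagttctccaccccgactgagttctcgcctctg
The STAT6 motif lies 145 bases before the start in Retnla and 154 bases before it in Ccl17. The second capital run in Ccl17, 99 bases before the start, is the shorter motif. Chil3 also had the shorter motif, TTCTTAGAA, 172 bases before its start.

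A level below is the log2 spot signal minus the 75th percentile of that array, so 0 is the brightness of the 75th percentile spot, which ranged from 928 to 2461 signal units. Between 70.4% and 79.8% of spots were well above background on an array, and none was saturated. Levels of different genes come from different probes and are not compared. Genotypes were compared within a tissue by limma with time as a term, over the genes well above background on at least 2 of its arrays, and p-values were adjusted over all of them. The 4 arrays of a genotype and tissue shared a scan time and filled positions 1 to 4, so genotype cannot be told apart from slide within a tissue. Bulk RNA cannot tell fewer cells of a type from less RNA per cell.

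The deleted genes were read first. Hdc lay between 1.67 and 2.78 in HDC-KO arrays and between 4.12 and 5.51 in all others. Stat6 is on 3 probes, whose position relative to the deleted part of the gene is not given in the sources used here. In bone marrow its main probe read 1.76 to 2.34 in STAT6-KO against 2.78 to 3.70 in WT. In spleen it read 1.94 to 2.44 against 2.38 to 2.90 in WT and 2.24 to 2.92 in HDC-KO. By limma its STAT6-KO difference in spleen did not pass against WT (-0.50, SE 0.15, adjusted p = 0.118). Nor did it against HDC-KO (-0.27, SE 0.17, adjusted p = 0.389). The 2.44 is the spleen array labelled as STAT6-KO at 2 weeks, which reached the WT range on this 1 probe. The spleen array labelled as STAT6-KO at 4 weeks read 2.12 here but reached the WT range on the other 2 probes. With every probe tested, those 2 probes differed from WT spleen by -1.10 (adjusted p = 0.0538) and -1.56 (adjusted p = 0.0469) by limma. The STAT6-KO calls of Ccl24 and Mgl2 in spleen are also given without this 4-week array. The spleen call of the granule gene Ngp and the calls between tissues are given only with it. The CD11b pair, Itgam and Itgb2, was well above background on every array.

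Of the 10 genes, 9 were measurable in spleen and 8 in bone marrow. Ccl22, a chemokine for T cells that carry the receptor Ccr4, was not well above background on any of the 22 arrays. Arg1 was not well above background on any of the 11 bone marrow arrays. The other 8 genes were detected on all 22 arrays, apart from Ccl17, which was detected on 20.

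**Figure D1:**
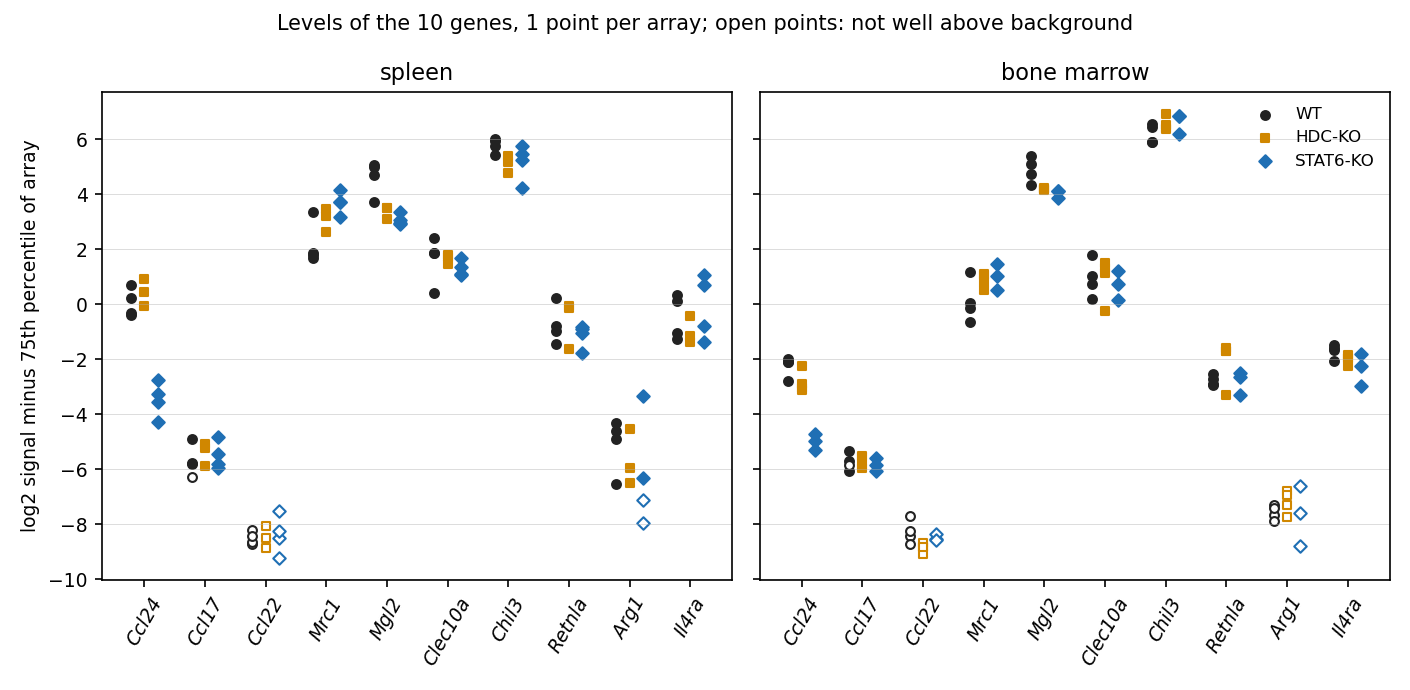
Levels of the 10 genes in spleen (left) and bone marrow (right). The vertical axis is the log2 signal minus the 75th percentile of the array, each point is 1 array, colour and shape give the genotype, and open points were not well above background. Ccl24 is the gene whose STAT6-KO points lie below all other points in both tissues, and all Ccl22 points are open.

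Ccl24, which encodes eotaxin-2, a chemokine for eosinophils that carry the receptor Ccr3, was far lower in STAT6-KO cells of both tissues. In WT spleen its level was 0.70 in the control and 0.21, -0.39 and -0.32 at 1, 2 and 4 weeks after MI. HDC-KO spleen gave 0.90, -0.07 and 0.45 at the same MI times. STAT6-KO spleen gave -3.27 in the control and -2.77, -3.55 and -4.30 after MI. The highest STAT6-KO array was thus more than 2 log2 units below the lowest array of either other genotype, and the groups did not overlap.

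The fitted difference from WT in spleen was -3.52 (SE 0.23, adjusted p = 0.0017), or 11.5-fold lower. It was lower at each of the 4 paired times, with differences from -3.99 to -2.98, and the exact two-sided sign-flip test gave p = 0.125, the smallest that 4 pairs allow. Against HDC-KO the difference was -4.05 (SE 0.26, adjusted p = 0.0020), or 16.5-fold lower. Ccl24 had the second most negative of 26472 differences from WT and the fifth most negative from HDC-KO. HDC-KO itself differed from WT by 0.52 (SE 0.26, adjusted p = 0.279), which did not pass the test.

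Bone marrow levels of Ccl24 were lower than those of spleen in every genotype, with STAT6-KO again lowest. WT gave -2.10 in the control and -2.01, -2.81 and -2.09 after MI. HDC-KO gave -2.90 in the control and -3.04, -3.12 and -2.27 after MI. STAT6-KO gave -4.98 in the control, -4.73 at 2 weeks and -5.31 at 4 weeks. Here too each STAT6-KO array lay below every array of the other genotypes.

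The difference from WT in bone marrow was -2.75 (SE 0.29, adjusted p = 0.0050), or 6.74-fold lower, and the 3 paired differences ran from -3.22 to -1.92. With 3 pairs the exact sign-flip test cannot go below p = 0.25, the value it gave. Against HDC-KO the difference was -2.17 (SE 0.29, adjusted p = 0.0096), or 4.51-fold lower. Ccl24 stood at rank 4 and rank 34 from the lowest among 27090 genes in these comparisons. The difference between tissues in the STAT6-KO effect on Ccl24, spleen minus bone marrow, was -0.77 (SE 0.39, adjusted p = 0.275).

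**Figure D2:**
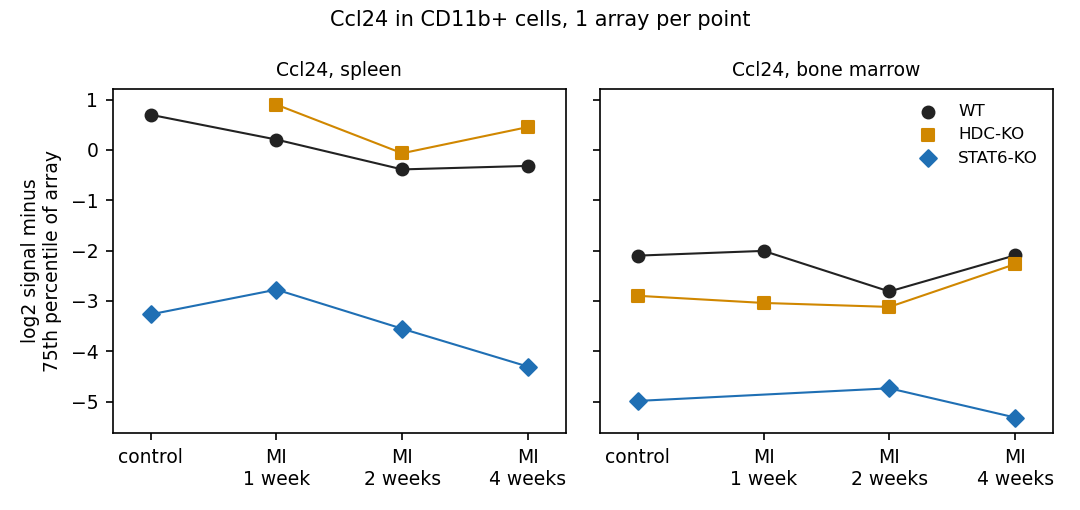
Ccl24 level (log2 signal minus the 75th percentile of the array, vertical axis) by condition (horizontal axis) in spleen (left) and bone marrow (right), 1 array per point, with lines joining the arrays of a genotype. STAT6-KO lies between -4.30 and -2.77 in spleen and between -5.31 and -4.73 in bone marrow, below both other genotypes throughout.

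Some settings ended these calls, and calls over all genes fell with them too. Normexp gave 4 against WT spleen and 0 against HDC-KO spleen, beside 517 and 1312 as reported. The methods' t-test after adjustment gave 23 and 0. The 2 genotypes fitted alone gave 0 against HDC-KO spleen and 0 in both bone marrow comparisons. Leave-outs in bone marrow gave 85 (control) and 11 (2 weeks) against WT, beside 1248. Against HDC-KO they gave 562, 34 and 478 (4 weeks), beside 1744. With normexp background correction the spleen difference from WT was -2.74 (adjusted p = 0.116) and that from HDC-KO -3.19 (adjusted p = 0.120). The methods' t-test after Benjamini-Hochberg adjustment also lost both spleen calls (adjusted p = 0.0703 and 0.214). In bone marrow, leaving out the control arrays gave -2.70 against WT (adjusted p = 0.0795) and leaving out the 2-week arrays gave -3.14 (adjusted p = 0.0592). Against HDC-KO these gave -2.20 (adjusted p = 0.0753) and -2.48 (adjusted p = 0.0683), and leaving out the 4-week arrays gave -1.77 (adjusted p = 0.0533). With the 2 genotypes fitted alone, the bone marrow values were -2.68 against WT (adjusted p = 0.079) and -2.25 against HDC-KO (adjusted p = 0.0953), and the spleen value against HDC-KO was -3.97 (adjusted p = 0.098). Leaving out the doubted 4-week STAT6-KO array, the spleen differences were -3.32 from WT (adjusted p = 0.0042) and -3.81 from HDC-KO (adjusted p = 0.0075). Without the 2-week arrays they were -3.64 (adjusted p = 0.0205) and -4.30 (adjusted p = 0.0157).

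Cell-type markers were read beside Ccl24. Signals of the 5 listed monocyte and macrophage genes on the array, each relative to the array's 75th percentile and summed, ranged from 94.6 to 134 in STAT6-KO spleen and from 76.1 to 113 in WT spleen. In bone marrow they ranged from 45.6 to 48.9 in STAT6-KO and from 37.4 to 59.2 in WT. All 7 eosinophil genes had positive differences from WT in both tissues. In bone marrow, 2 of the 7 were higher, as were 3.98% of all genes: Il5ra, a receptor chain for interleukin-5, by 1.13 (SE 0.18, adjusted p = 0.0202), and Ear1, a granule ribonuclease, by 0.78 (SE 0.13, adjusted p = 0.0198). All 6 basophil and mast cell genes had negative differences from WT, from -2.05 to -0.86 in spleen and from -0.80 to -0.18 in bone marrow, and none passed the test. The summed signal of that list was 0.43 to 0.85 in STAT6-KO spleen and 0.95 to 2.40 in WT spleen. In HDC-KO against WT, 6 of the 7 eosinophil genes had positive differences in bone marrow and 4 of 7 in spleen. Bone marrow Ear1 was 2.26 to 3.01 in HDC-KO, 2.45 to 2.69 in STAT6-KO and 1.65 to 2.33 in WT. Il5ra there was -1.71 to -1.08 in HDC-KO, -0.23 to -0.06 in STAT6-KO and -1.77 to -0.87 in WT. The part of any of these cell types in the Ccl24 result was not tested.

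Ccl17, a ligand of Ccr4 like Ccl22, was near the detection limit and did not follow Ccl24. In spleen it lay between -6.30 and -4.83 over all 11 arrays, and in bone marrow between -6.07 and -5.34. The array with the lowest level, WT spleen MI 1 week, was not well above background, and neither was WT bone marrow MI 1 week. Its differences between STAT6-KO and WT were 0.18 (SE 0.20, adjusted p = 0.630) in spleen and -0.08 (SE 0.23, adjusted p = 0.866) in bone marrow.

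Over all measurable members, 2 of 9 were lower in STAT6-KO than in WT spleen, Ccl24 and Mgl2, where 1.28% of all genes were lower and 0.669% higher. Against HDC-KO spleen 1 of 9 was lower, Ccl24, where 4.29% of all genes were lower and 0.665% higher. In bone marrow 1 of 8, Ccl24, was lower than in WT, where 0.628% of genes were lower and 3.98% higher. It was also the 1 of 8 lower than in HDC-KO, where 0.886% were lower and 5.55% higher. No member was higher in any of these 4 comparisons. At an unadjusted p under 0.05 there were 3 of 9 against WT spleen (22.9% of genes), 2 of 9 against HDC-KO spleen (23.3%), 3 of 8 against WT bone marrow (22.4%) and 2 of 8 against HDC-KO bone marrow (26.1%). The median difference of the members was -0.39 against WT spleen and -0.37 against WT bone marrow, beside -0.06 and 0.07 over all genes.

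Counted by overlap, every STAT6-KO array lay below every WT array for Ccl24 and Mgl2 in spleen, as for 3.4% of genes. Against HDC-KO spleen this held for Ccl24 alone, as for 7.25% of genes, and against both together for Ccl24, as for 1.19%. In bone marrow it held for Ccl24 and Mgl2 against WT (3.91% of genes), against HDC-KO (5.68%) and against both (1.24%). For no member did every STAT6-KO array lie above every WT array, which held for 2.24% of genes in spleen and 10.1% in bone marrow.

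**Figure D3:**
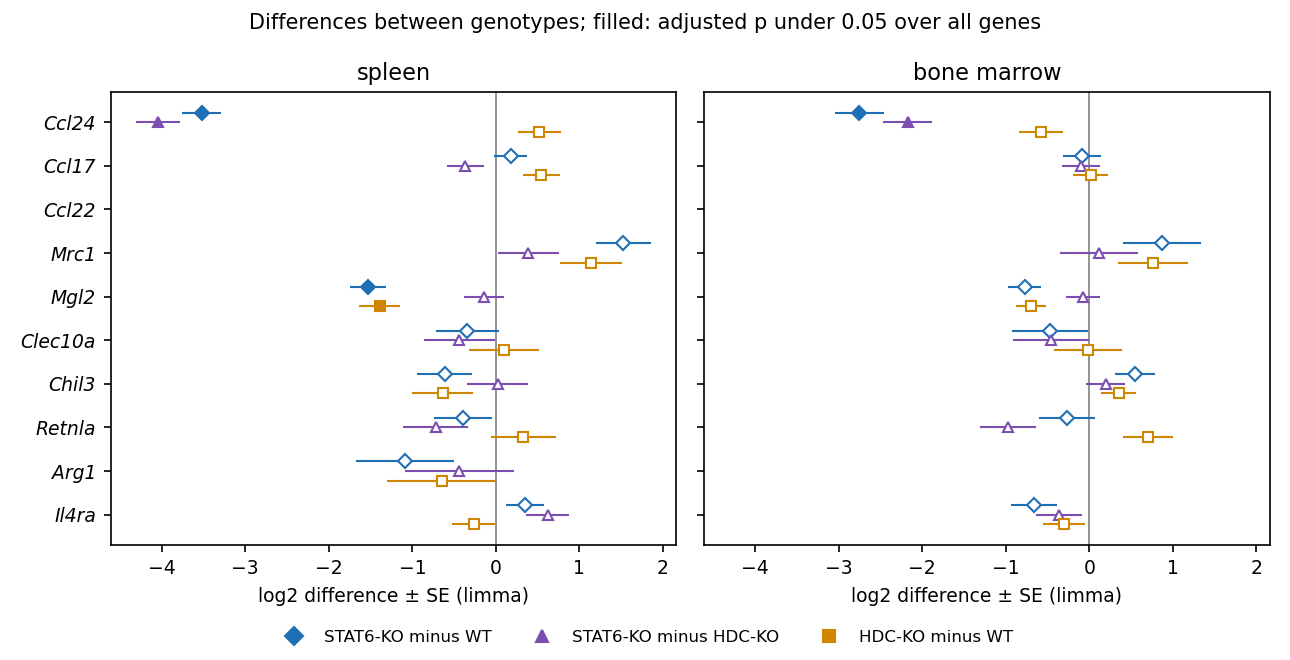
Differences between genotypes for each gene (rows) in spleen (left) and bone marrow (right), as log2 difference with its SE from limma; filled symbols had an adjusted p under 0.05 over all genes, and genes not tested have no symbol. Ccl24 is filled for STAT6-KO against both other genotypes in both tissues, and Mgl2 is filled in spleen for both knockouts against WT.

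Mgl2, a macrophage lectin for galactose and N-acetylgalactosamine sugars, was lower in spleen in both knockouts than in WT. Both comparisons used the same 4 WT spleen arrays, so they were not independent. In WT spleen it stood at 3.71 in the control and at 5.04, 4.98 and 4.68 after MI. HDC-KO spleen gave 3.50, 3.48 and 3.11 after MI. STAT6-KO spleen gave 3.06 in the control and 3.36, 2.94 and 2.93 after MI. The 3 WT MI arrays lay above all other spleen arrays, with the WT control between them and the knockouts. That split was picked out after the values were seen, and its share over all genes was not counted.

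STAT6-KO differed from WT by -1.53 (SE 0.22, adjusted p = 0.0207), or 2.89-fold lower, at 4 of 4 paired times (exact sign-flip p = 0.125, the smallest possible). HDC-KO differed from WT by -1.39 (SE 0.24, adjusted p = 0.0324), or 2.62-fold lower, at 3 of 3 times. It was the 1 member of 9 called in that comparison, where 0.748% of genes were lower. Between the knockouts the difference was -0.14 (SE 0.24, adjusted p = 0.780). The call against WT was lost without the 1-week arrays (-1.48, adjusted p = 0.0946), the 2-week arrays (-1.36, adjusted p = 0.101) or the 4-week arrays (-1.46, adjusted p = 0.135). Leaving out the doubted 4-week STAT6-KO array alone gave -1.48 (adjusted p = 0.0537). The call was also lost with normexp (-1.60, adjusted p = 0.300), with the 2 genotypes fitted alone (adjusted p = 0.0697) and by the methods' t-test after Benjamini-Hochberg adjustment (adjusted p = 0.326), so 7 of 17 alternatives ended it. The HDC-KO call was lost without any 1 of the MI times and with normexp. Over all genes, STAT6-KO calls against WT spleen fell from 517 to 56, 63 and 30 without 1, 2 and 4 weeks. They fell to 215 without the doubted array, 4 with normexp, 144 with the 2 genotypes alone and 23 by that t-test. HDC-KO calls against WT spleen fell from 742 to 0, 195 and 7 without the same times, and to 6 with normexp.

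In bone marrow Mgl2 was 4.31 in the WT control and 5.38, 4.73 and 5.11 after MI. HDC-KO arrays were nearly flat, from 4.17 to 4.21, and STAT6-KO arrays ran from 3.85 to 4.12. Every WT array was thus above every knockout array, and the share of all genes with that split was not counted. The differences from WT were -0.77 for STAT6-KO (SE 0.20, adjusted p = 0.0804) and -0.70 for HDC-KO (SE 0.18, adjusted p = 0.135), and neither passed the test. With quantile normalisation the first became -0.81 (adjusted p = 0.0477). No member passed in HDC-KO against WT bone marrow by limma, where 0.443% of genes did, and 2 of 8 had an unadjusted p under 0.05, beside 21.2% of all genes.

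Mrc1, the mannose receptor CD206, ran the opposite way to Mgl2. In WT spleen it was 3.37 in the control and 1.66, 1.84 and 1.78 after MI. HDC-KO spleen gave 3.46, 2.63 and 3.20 after MI. STAT6-KO spleen gave 3.71 in the control and 4.17, 3.71 and 3.18 after MI. Only the 3 WT MI arrays stood apart, below the other 8. As for Mgl2, this split was picked out after the values were seen and was not counted over all genes.

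The STAT6-KO difference from WT was 1.53 in spleen (SE 0.33, adjusted p = 0.0586), in the same direction at 4 of 4 times, and did not pass the test. Without the control arrays it was 1.92 (adjusted p = 0.0239), and without the 1-week arrays 1.20 (adjusted p = 0.180). HDC-KO differed from WT by 1.14 (SE 0.37, adjusted p = 0.125), and the knockouts from each other by 0.39 (SE 0.37, adjusted p = 0.577). In bone marrow the same arrays were apart: WT gave 1.17 in the control and -0.15, 0.05 and -0.65 after MI. HDC-KO gave 0.52 in the control and 1.04, 0.81 and 1.09 after MI, and STAT6-KO gave 0.52, 1.01 and 1.46. The STAT6-KO difference there was 0.88 (SE 0.47, adjusted p = 0.318).

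**Figure D4:**
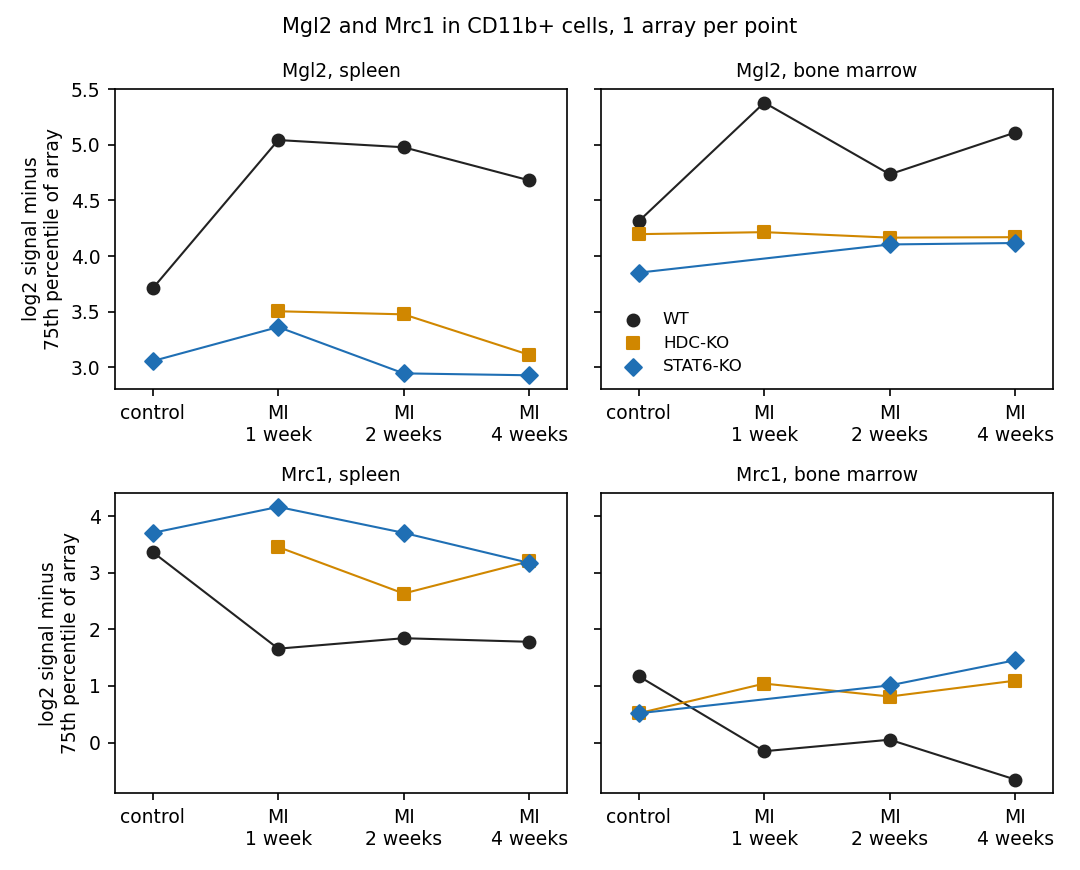
Mgl2 (top) and Mrc1 (bottom) by condition in spleen (left) and bone marrow (right), as log2 signal minus the 75th percentile of the array, 1 array per point, with lines joining the arrays of a genotype. In spleen the 3 WT MI arrays hold the highest Mgl2 levels (4.68 to 5.04) and the lowest Mrc1 levels (1.66 to 1.84), while the WT control lies near the knockouts.

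Relative to its control, Mgl2 was higher on 3 of 3 WT MI arrays in spleen, by 0.97 to 1.33, and Mrc1 was lower on 3 of 3, with differences from -1.71 to -1.52. In STAT6-KO spleen the same changes were -0.13 to 0.31 for Mgl2 and -0.53 to 0.46 for Mrc1. The change after MI in STAT6-KO minus that in WT, a test chosen after these values were seen, was -1.17 for Mgl2 (SE 0.43, adjusted p = 0.947). For Mrc1 it was 1.58 (SE 0.60, adjusted p = 0.996). In bone marrow Mrc1 gave 2.14 for STAT6-KO (SE 0.51, adjusted p = 0.882) and 1.89 for HDC-KO (SE 0.49, adjusted p = 0.772). No member passed by limma in any of the 3 comparisons, as for 0% of all genes in each. Mgl2 and Mrc1 in spleen and Mrc1 in both bone marrow comparisons had an unadjusted p under 0.05, beside 4.48% of all genes in spleen, 5.39% for STAT6-KO in bone marrow and 2.66% for HDC-KO in bone marrow. These tests rest on 1 control array per genotype.

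Red pulp macrophage genes, read beside Mrc1, had a median difference of 1.23 between STAT6-KO and WT spleen, with 4 of 5 positive and none past the test. Their summed signal ranged from 30.9 to 75.5 in WT spleen and from 74.8 to 110 in STAT6-KO spleen. The part of these cells in the Mrc1 result was not tested.

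Clec10a, the lectin also called MGL1 and a close relative of Mgl2, did not share its pattern. In WT spleen it was 2.41 in the control and 1.85, 0.40 and 1.87 after MI. HDC-KO spleen gave 1.77, 1.71 and 1.44, and STAT6-KO spleen gave 1.05 in the control and 1.35, 1.66 and 1.10 after MI. All 3 genotypes overlapped. The differences between STAT6-KO and WT were -0.34 (SE 0.38, adjusted p = 0.629) in spleen and -0.48 (SE 0.46, adjusted p = 0.583) in bone marrow. Cross-hybridisation between the Mgl2 and Clec10a probes was not tested.

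Chil3, the secreted chitinase-like protein Ym1 that neutrophil precursors also make, was bright on every array, and STAT6-KO overlapped both other genotypes in spleen. Spleen levels ranged from 5.44 to 5.99 in WT, 4.76 to 5.40 in HDC-KO and 4.21 to 5.76 in STAT6-KO. The lowest was the doubted 4-week STAT6-KO array. The STAT6-KO differences from WT were -0.61 (SE 0.33, adjusted p = 0.302) in spleen and 0.55 (SE 0.24, adjusted p = 0.227) in bone marrow. The effect in spleen minus that in bone marrow, -1.16 (SE 0.44, adjusted p = 0.146), did not pass the test. The 7 neutrophil granule genes had a median difference of -0.77 in spleen, where 7 of 7 were negative, and 0.48 in bone marrow, where 7 of 7 were positive. Of the 7, 1 passed the test in spleen, Ngp, at -1.25 (SE 0.20, adjusted p = 0.0288), beside 1.28% of all genes lower, and none passed in bone marrow. In HDC-KO against WT spleen, 7 of 7 granule genes were negative as well, with a median of -0.62. Chil3 there differed by -0.63 (SE 0.36, adjusted p = 0.347 by limma). In HDC-KO against WT bone marrow, 5 of 7 granule genes were positive, and Chil3 differed by 0.35 (SE 0.21, adjusted p = 0.354). The part of neutrophil precursors in the Chil3 values was not tested.

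Retnla, the secreted protein Fizz1, overlapped between all genotypes in spleen. WT spleen gave 0.23 in the control and -0.97, -0.79 and -1.46 after MI. HDC-KO spleen gave -0.14, -1.65 and -0.08, and STAT6-KO spleen gave -0.89 in the control and -0.84, -1.78 and -1.04 after MI. Its difference from WT was -0.39 (SE 0.35, adjusted p = 0.543) in spleen and -0.27 (SE 0.33, adjusted p = 0.680) in bone marrow. Against HDC-KO it was lower at 3 of 3 paired times in each tissue, as were Ccl24, Mgl2 and Clec10a. The share of all genes with such signs was not counted. The fitted differences of Retnla from HDC-KO were -0.72 (SE 0.39, adjusted p = 0.312) in spleen and -0.97 (SE 0.33, adjusted p = 0.127) in bone marrow. Leaving out the 1-week arrays, the bone marrow difference from HDC-KO was -1.16 (adjusted p = 0.0456).

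Arg1, which turns arginine into ornithine and urea, was dim and variable. In WT spleen it was -4.62 in the control and -4.34, -4.89 and -6.53 after MI. HDC-KO spleen gave -4.55, -6.49 and -5.95. STAT6-KO spleen held both extremes, with -3.35 at 1 week and -6.31 at 2 weeks, and -7.12 in the control and -7.96 at 4 weeks, where it was not well above background. The difference from WT was -1.09 (SE 0.58, adjusted p = 0.304), negative at 3 of 4 times.

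Il4ra, the chain shared by the receptors for interleukin-4 and interleukin-13, is on 2 probes that disagreed. On the brighter probe, spleen levels ranged from -1.26 to 0.33 in WT and from -1.39 to 1.04 in STAT6-KO, with a difference of 0.35 (SE 0.23, adjusted p = 0.391). In bone marrow the difference was -0.66 (SE 0.28, adjusted p = 0.214). On the dimmer probe the bone marrow difference was 0.69 (SE 0.16, adjusted p = 0.062) from WT and 1.14 (SE 0.16, adjusted p = 0.0118) from HDC-KO. In spleen it gave -0.20 from WT (SE 0.15, adjusted p = 0.470) and -0.47 from HDC-KO (SE 0.17, adjusted p = 0.148), where the brighter probe gave 0.62 from HDC-KO (SE 0.26, adjusted p = 0.196). Both probes match the same RefSeq transcript, so the direction for Il4ra is unsettled in both tissues.

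The rest of the interleukin-4 and interleukin-13 pathway was read from a list of 12 genes. Of 11 tested in spleen, none passed in STAT6-KO against WT or HDC-KO. The largest differences from WT were 1.70 for Il13 (SE 0.53, adjusted p = 0.118), 1.26 for Il4 (SE 0.31, adjusted p = 0.0769) and -0.97 for Il2rg (SE 0.42, adjusted p = 0.222). In bone marrow 3 of 11 were lower than in WT, beside 0.628% of all genes, and 1 of the 3 is Stat6, the deleted gene. They were Il2rg, the receptor chain shared by several interleukins, at -1.35 (SE 0.21, adjusted p = 0.0169), Stat6 at -0.93 (SE 0.20, adjusted p = 0.0473) and the kinase Tyk2 at -0.75 (SE 0.14, adjusted p = 0.0295). None passed against HDC-KO bone marrow, where Irs1, a docking protein of the interleukin-4 receptor, differed by -1.52 (SE 0.38, adjusted p = 0.0627). The list median was -0.17 in spleen and -0.51 in bone marrow against WT, beside -0.06 and 0.07 over all genes.

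Of 26 tested genes on a list of 28 others linked to alternative activation, none passed against WT in either tissue or against HDC-KO in spleen. Against HDC-KO bone marrow 2 of 26 passed, where 0.886% of all genes were lower and 5.55% higher: Irf4, a transcription factor of that programme, was lower in STAT6-KO, at -1.62 (SE 0.33, adjusted p = 0.0341), and the cholesterol hydroxylase Ch25h was higher by 1.22 (SE 0.16, adjusted p = 0.0082). The largest difference from WT spleen was 1.76 for the haemoglobin scavenger receptor Cd163 (SE 0.43, adjusted p = 0.0744). The list median was 0.29 in spleen and -0.10 in bone marrow.

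The 13 tested genes of classical, interferon-driven activation gave 1 call against WT, in bone marrow, where the chemokine Cxcl9 was lower, at -2.60 (SE 0.48, adjusted p = 0.0297), as were 0.628% of all genes. In spleen Cxcl9 differed from WT by -1.77 (SE 0.36, adjusted p = 0.0552). HDC-KO levels of Cxcl9 were low too. They ran from -0.97 to -0.49 in spleen, where WT ran from -0.46 to 2.27. In bone marrow they ran from -3.34 to -1.91, where WT ran from -2.08 to -0.02. Cxcl9 was not called between the knockouts in either tissue. Against HDC-KO bone marrow, Nos2, the inducible nitric oxide synthase that competes with Arg1 for arginine, was the 1 of 13 called, higher by 1.56 (SE 0.35, adjusted p = 0.0440), as were 5.55% of all genes. The list median was -0.04 in spleen and -0.49 in bone marrow against WT.

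Spleen and bone marrow cells of the same genotype and time were compared in 10 pairs. Each slide held arrays of 1 tissue only, so tissue cannot be told apart from slide. The 10 pairs came from 6 slides and were thus not independent, and the p-values of the paired fit do not allow for this. Of 9 members tested, 6 were higher in spleen, where 22.4% of all genes were higher, and 2 were lower, where 32.1% were lower. Arg1, 1 of the 6, passed the filter through its spleen arrays alone. Ccl24 was higher in 10 of 10 pairs, by 2.28 (SE 0.26, adjusted p = 1.7e-05), and Mrc1 in 10 of 10, by 2.22 (SE 0.15, adjusted p = 3.9e-07). Retnla was higher by 1.76 (SE 0.26, adjusted p = 0.00015), Il4ra by 1.62 (SE 0.30, adjusted p = 0.00071) and Clec10a by 0.69 (SE 0.18, adjusted p = 0.0057), each in 10 of 10 pairs. With slide as a random block the Clec10a call was lost (adjusted p = 0.0750). The Il4ra value is that of the brighter probe. The dimmer probe was lower in spleen in 7 of 10 pairs, from -2.19 to 0.92, and the mean of both probes gave 0.53 (adjusted p = 0.0534), so the tissue direction of Il4ra is unsettled too.

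Arg1 was well above background on 0 of 11 bone marrow arrays and on 9 of 11 spleen arrays. It thus entered the test only through the tissue where it was brighter. Its fitted difference, 1.65 (SE 0.33, adjusted p = 0.0013), sets spleen signal against background and does not test the tissues. A bound of 2.17-fold was also taken, without a test of its own. It sets the mean of all 11 spleen arrays against the bone marrow mean. Each bone marrow array was raised to its lowest signal that was well above background where Arg1 was dimmer. With normexp the fitted difference was 0.31 (adjusted p = 0.140). The call and the size thus both depend on the background correction, and the bound holds only for the signal used here. Chil3 was lower in spleen in 10 of 10 pairs, at -1.08 (SE 0.19, adjusted p = 0.00053), and Mgl2 in 9 of 10, at -0.67 (SE 0.14, adjusted p = 0.0016). The Mgl2 call was lost without the pair as a block (adjusted p = 0.0595) and with slide as a random block (adjusted p = 0.0734). Ccl17 differed by 0.21 (SE 0.16, adjusted p = 0.306). The other alternative activation list had 17 of 26 genes higher in spleen and 6 lower. Cell-type markers moved with the tissue as well. All 5 red pulp macrophage genes and all 4 B cell genes were higher in spleen, and all 7 neutrophil granule genes were lower. Their part in the tissue differences was not tested.

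No member passed in the STAT6-KO effect of spleen minus that of bone marrow by limma, where 5.21% of all genes did. At an unadjusted p under 0.05 there were 3 of 9, beside 22% of all genes. For MI against control, with genotype as a term, 0 of 9 members passed in spleen by limma, where 0.00378% of genes did, and 3 of 9 had an unadjusted p under 0.05, beside 15.7% of all genes. The largest values were -1.06 for Il4ra on its brighter probe (SE 0.26, adjusted p = 0.156) and -0.99 for Ccl17 (SE 0.23, adjusted p = 0.140). Ccl17 was lower than the control on 6 of 6 WT and STAT6-KO MI arrays in spleen, with differences from -1.39 to -0.62. These rest on 1 control array per genotype, so they were not independent, and the share of all genes with this pattern was not counted. The -1.39 is WT at 1 week, where Ccl17 was not well above background. In bone marrow 0 of 8 passed by limma, as for 0% of genes, and 0 of 8 had an unadjusted p under 0.05, beside 16.7% of all genes.

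The genes whose levels followed each member most closely over the 22 arrays were named by Pearson's r, among 16652 genes with a symbol that were well above background on at least 11 arrays. For Ccl24 they were Nxpe5 (r = 0.92), Stx3 (0.82) and Selenow (0.81). For Mrc1 they were Slco2b1 (0.99), Tenm4 (0.99) and Acot4 (0.99), and for Mgl2 Nlrp1a (0.93), C130026I21Rik (0.88) and Spaca9 (0.88). Chil3 was closest to Wfdc21 (0.96), Serpinb1a (0.94) and AA467197 (0.93). The best match was Plekho1 for Retnla (0.90), Abca9 for Clec10a (0.85), 1810019D21Rik for Ccl17 (0.73) and Olfr187 for Il4ra (0.96). These values are descriptions over arrays that share slides, genotypes and tissues. No member was among the 3 closest genes of another, and Arg1 and Ccl22 were above background on too few arrays to be matched.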

How the data were processed

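Deposited scanner files of 24 one-colour Agilent mouse arrays (Cy3) were read. Per the file headers, Feature Extraction had produced the processed signal intensity by background subtraction; GCRMA is the tool named in the submitters' processing notes and was not applied to the intensity used here. Control spots and outlier spots were left out and spots of a probe were averaged. The log2 intensity was taken minus the 75th percentile of the array's non-control spots. Of 39429 probes, 27234 were named through RefSeq accessions, and a gene was represented by its brightest probe. Genes well above background on at least 2 arrays of a fit were tested with limma 3.58.1 in R 4.3.3 (genotype plus time within a tissue, tissue within genotype and time, and genotype by tissue), with Benjamini-Hochberg adjustment over all genes and a threshold of 0.05. The precision is limited by the number of arrays. Arrays are pools of 5 mice; p-values measure the spread between time points. Single genes were checked with exact sign-flip tests over paired times. Member and list genes were chosen with earlier results of these data known; named genes were the members, the deleted genes and, from the lists, genes past the threshold or among the 3 largest differences; the marker genes Il5ra, Ear1 and Ngp were named after their values were seen. Alternatives covered scaling, normexp background correction (offset 50), a floor, dim-probe filters, probe choice, 2 genotypes alone, the methods' t-test, slide and pair blocks, and leave-outs; the fits were tested on simulated data. The 2 incomplete arrays were left out.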

Additional observations from a re-analysis of the deposited data

How the results depend on the processing

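The direction of Ccl24 was the same under every alternative run: -3.70 to -2.74 against WT and -4.30 to -3.19 against HDC-KO in spleen, and -3.14 to -1.90 and -2.49 to -1.30 in bone marrow. Of 116 alternative counts of members called, 91 were within 1.5 times the reported count. In spleen against WT, 2 members fell to 0 with normexp, to 1 with the 2 genotypes alone, to 0 by the methods' t-test after Benjamini-Hochberg adjustment (3 at p under 0.05 and fold over 2), and to 1 without the doubted 4-week STAT6-KO spleen array; leave-outs gave 1 to 3. Over all genes, normexp called 4 in that comparison, the 2 genotypes alone 144 and the adjusted t-test 23, beside 517 as reported. Against HDC-KO spleen, 1 became 0 with normexp, with 2 genotypes alone and by that adjusted t-test. Each of these settings called 0 of all genes there, and leave-outs kept 1. HDC-KO against WT spleen gave 0 with normexp and 0 to 2 in leave-outs. In bone marrow against WT, 1 became 2 with quantile or median scaling and 0 with 2 genotypes alone (leave-outs 0 to 1). Against HDC-KO bone marrow, 1 became 0 with 2 genotypes alone (leave-outs 0 to 2). The 2 genotypes alone called 0 of all genes in both of these bone marrow comparisons. The other 5 counts stayed within that range, although between tissues Arg1 (normexp), Il4ra (mean over probes), Clec10a (slide block) and Mgl2 (slide block, no pair block) each lost their call. Values that did not pass the test reversed as follows. In spleen against WT, Arg1 was 0.28 with normexp. In spleen against HDC-KO, Ccl17 was 0.0098 with quantile scaling and 0.50 with normexp, Mgl2 0.085 with median scaling, Arg1 0.42 and Chil3 -0.082 with normexp, and Chil3 -0.13 with 2 genotypes alone; leave-outs ranged from -0.20 to 0.54 for Chil3, -1.09 to 0.31 for Arg1 and -0.29 to 0.014 for Mgl2. In bone marrow Il4ra averaged over probes was 0.012 against WT and 0.39 against HDC-KO, and Ccl17 leave-outs ranged from -0.34 to 0.22 against WT. Against HDC-KO, Chil3 was -0.21 with quantile scaling, Mrc1 -0.059 with median scaling and Ccl17 0.064 with normexp; leave-outs ranged from -0.092 to 0.29 for Mrc1, -0.15 to 0.011 for Mgl2 and -0.28 to 0.13 for Ccl17. Between tissues Ccl17 was -0.086 with normexp. The cause of these changes was not tested. Median scaling moved the median difference of all genes against HDC-KO spleen from -0.09 to 0.13, and normexp moved it against WT spleen from -0.06 to 0.27. Quantile scaling gave 200 lower of 376 calls against WT spleen (340 of 517 as reported), 264 of 413 against HDC-KO spleen (1136 of 1312), 477 of 1502 against WT bone marrow (170 of 1248) and 532 of 1690 against HDC-KO bone marrow (240 of 1744).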
